A study of Homo sapiens with 8 samples.

Results

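The genes described here encode the enzymes that write and erase N6-methyladenosine (m6A) in RNA and the YTH-domain proteins that read it: METTL3, METTL14, WTAP, KIAA1429 (the older symbol of VIRMA), ALKBH5, FTO, YTHDF1, YTHDF2, YTHDF3 and YTHDC1. They were chosen by gene name, with earlier results of these data known, and all 10 had a row among the 10105 genes of the deposited count table. The study compared HEK293T cells, a line derived from human embryonic kidney, in the wild-type (WT) state with an XRN1-null derivative made by CRISPR/Cas9 editing. The methods describe the XRN1-null cells as 1 cell line with a frameshifting deletion in XRN1, so a difference between genotypes cannot be told apart from a difference between cell lines. Both genotypes were grown alike on 15 cm dishes and were harvested after 24 h, and the sources used here describe no other treatment. Messenger RNA (mRNA) was sequenced (RNA-Seq), and ribosome-protected fragments (RPF) were sequenced from the same kinds of culture (Ribo-Seq). Each assay had 2 biological replicates of each genotype, with 8 libraries in all. The study states that its RNA-Seq did not see cleaved fragments that lack poly(A) tails. It proposes that uncapped fragments with tails, which are not translated, accumulate in XRN1-null cells and were sequenced. An mRNA level may therefore include decay fragments, and their part in the changes was not tested.

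m6A is placed on nascent mRNA in the nucleus by METTL3 and METTL14, which act as a heterodimer, with WTAP and KIAA1429 as accessory subunits that position the complex. ALKBH5 and FTO remove methyl groups from RNA. Of the readers, YTHDC1 acts mainly in the nucleus, while YTHDF1, YTHDF2 and YTHDF3 bind methylated mRNA in the cytoplasm, where YTHDF2 recruits the CCR4-NOT deadenylase and so leads bound mRNA into the decay route that XRN1 completes. No measurement of m6A itself was used here, so the data describe the mRNA and the footprints of this machinery only.

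RNA-Seq libraries held 33757487 to 38145433 counts and Ribo-Seq libraries 1921641 to 4399542, with WT Ribo-Seq replicate 1 the shallowest of the 8. The RNA-Seq totals are larger than the numbers of mapped reads stated in the study's methods, so 1 count need not stand for 1 sequenced fragment. Levels are given as CPM, counts per 1 M on totals scaled by TMM factors within each assay, and 1 CPM stood for 1.92 counts in that library against 3.20 to 4.35 counts in the other Ribo-Seq libraries and 32.8 to 38.9 counts in RNA-Seq. Replicates varied more in Ribo-Seq, with a common biological coefficient of variation of 9.84% against 6.02% for mRNA. Within each assay the WT replicates differed from each other more than the XRN1-null replicates, by a chi-square statistic per degree of freedom over genes of 24.0 against 3.84 in RNA-Seq and 7.77 against 2.02 in Ribo-Seq, a measure that grows with depth. XRN1 mRNA rose in the XRN1-null libraries (log2FC 3.01), and its footprints had a log2FC of -1.08 that was not called. Its translational efficiency (TE), the footprints relative to mRNA, was called lower, with a log2FC of -4.09 (edgeR's quasi-likelihood test, FDR = 1.66e-06). The XRN1 mRNA level alone therefore gave no check of the genotype, and the protein was not measured in these libraries. For the XRN1-null cells the study reports XRN1 transcripts that keep an intron, and no XRN1 protein detected by western blot. Of the 5 genes set as markers of HEK293T, LIN28B, NEFM, INA and EN2 lay between 46.0 and 166 CPM in RNA-Seq and PAX2 had no row in the table. None of the 6 liver and blood markers looked for had a row. In bulk libraries, fewer expressing cells and less RNA per cell cannot be told apart.

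In the GRCh37 build, METTL3 lies on chr14:21966277-21979484 (minus strand), METTL14 on chr4:119606547-119636588 (plus), WTAP on chr6:160146617-160177351 (plus), ALKBH5 on chr17:18086392-18113268 (plus) and FTO on chr16:53735604-54192424 (plus). YTHDF1 lies on chr20:61826781-61847491 (minus), YTHDF2 on chr1:29063133-29096287 (plus) and YTHDC1 on chr4:69176105-69215808 (minus). The annotation (GENCODE release 44) gives their reference transcripts 4 exons in ALKBH5, 5 each in YTHDF1 and YTHDF2, 17 in YTHDC1 and 24 in KIAA1429. Protein-coding genes on the opposite strand overlap METTL3 (TOX4), WTAP (SOD2) and FTO (RPGRIP1L), and whether the counting used strand is not given in the sources used here. None of these neighbours was called in mRNA: TOX4 had a log2FC of 0.05, SOD2 of -0.09 and RPGRIP1L of -0.23.

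m6A is found mostly in a short consensus whose most frequent core is GGACT, and it is enriched around stop codons. GGACT on the sense strand was counted in the coding sequence of each reference transcript, where it occurred 9 times in KIAA1429, 4 times in METTL3, 2 times each in METTL14, WTAP, ALKBH5 and YTHDF3, once each in YTHDF1 and YTHDF2, and not at all in FTO and YTHDC1. Per kb of coding sequence this was 2.30 in METTL3 and 0.596 in YTHDF1, against a median of 0.952 over the 9773 genes with a coding sequence. WTAP, ALKBH5 and KIAA1429 held it within the last 200 coding nt, as did 20.5% of the 9730 genes with a coding sequence that long. The match closest to the end of the coding sequence is shown for METTL14, WTAP, ALKBH5 and YTHDF1, whose mRNA passed the test, so that it can be set beside their changes. KIAA1429 also passed the test and held matches, and its sequence is not shown. The windows are 25 nt of coding exon with GGACT in capitals, at chr4:119626806-119626830 (plus strand), chr6:160176597-160176621 (plus), chr17:18111643-18111667 (plus) and chr20:61833910-61833934 (minus):
METTL14: gcacagacggGGACTtcattcatgc
WTAP: agaatggcttGGACTcaagtgtaaa
ALKBH5: agtcctcagaGGACTgctctgaggc
YTHDF1: agtcccccgtGGACTacggcaccag
The motif ended 29 nt before the end of the coding sequence in WTAP and 50 nt before it in ALKBH5, but 305 nt before it in YTHDF1 and 458 nt in METTL14. Of the 3 members with a match within the last 200 coding nt, WTAP and ALKBH5 fell in mRNA and KIAA1429 rose. A match describes letters only, and methylation at these places was not tested.

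Changes are given as log2FC of XRN1-null over WT with the SE of the fit. Where a library was left out, the fit took the spread only from the groups that still held replicates. A gene was called at a false discovery rate (FDR, Benjamini-Hochberg over all 10105 genes) below 0.005 in edgeR's quasi-likelihood test, and every "edgeR FDR" below is that value. In mRNA, 3 of the 10 members rose (METTL14, KIAA1429 and YTHDC1), 3 fell (WTAP, ALKBH5 and YTHDF1) and 4 were not called. These shares stand beside a background of 22.9% of all genes called higher and 23.2% called lower, and no test of the 10 members against it was made. The median log2FC of the members was -0.05, against -0.01 over all genes. Groups did not overlap in 9 of the 10 members, higher in XRN1-null in 4 and lower in 5, where 41.0% of all genes were non-overlapping and higher and 43.7% non-overlapping and lower.

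Of the core pair, METTL14 passed the test in mRNA and METTL3 did not, and the difference between their changes was not tested. METTL3, which carries the methyltransferase activity, was at 57.9 and 58.3 CPM in the WT RNA-Seq libraries and at 60.8 and 62.0 CPM in the XRN1-null libraries. Both XRN1-null libraries were above both WT libraries, but the change was small and not called (log2FC 0.08, SE 0.0608, edgeR FDR = 0.279), with a 95% interval from -0.06 to 0.22. METTL14, the partner subunit that helps bind RNA, was at 22.9 and 24.6 CPM in WT and at 34.6 and 33.0 CPM in XRN1-null, from 812, 807, 1308 and 1285 counts. The groups lay well apart and the mRNA rose (log2FC 0.51, SE 0.0779, edgeR FDR = 0.000851), which is 1.42-fold. Without XRN1-null RNA-Seq replicate 1 the METTL14 call was lost (log2FC 0.48, edgeR FDR = 0.00870).

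The accessory subunits moved in opposite directions. WTAP, the adaptor that holds the METTL3-METTL14 pair in nuclear speckles, was at 166 and 161 CPM in WT and at 105 and 105 CPM in XRN1-null. The replicates of each genotype were close together and the mRNA fell by 35.9% (log2FC -0.64, SE 0.0613, edgeR FDR = 9.41e-05), the largest fall among the members. The overlapping SOD2 was at 211 and 222 CPM in WT and at 208 and 198 CPM in XRN1-null. KIAA1429, the large scaffold subunit, was at 72.7 and 75.3 CPM in WT and at 112 and 103 CPM in XRN1-null. Its groups did not overlap and its mRNA rose 1.45-fold (log2FC 0.54, SE 0.0706, edgeR FDR = 0.000395). The KIAA1429 call was also lost without XRN1-null RNA-Seq replicate 1 (edgeR FDR = 0.00592).

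Both demethylases had lower mRNA in XRN1-null cells, and only that of ALKBH5 passed the threshold. ALKBH5, a nuclear demethylase and the most abundant member per length in RNA-Seq, was at 314 and 325 CPM in WT and at 257 and 261 CPM in XRN1-null. The groups were apart and the mRNA fell by 19.0% (log2FC -0.30, SE 0.0613, edgeR FDR = 0.00330). This call was lost on library totals (edgeR FDR = 0.00789) and without either XRN1-null RNA-Seq library (edgeR FDR = 0.0903 without replicate 1 and 0.0707 without replicate 2). FTO, which acts on m6A and on the related cap-adjacent mark, was at 53.9 and 60.8 CPM in WT and at 44.7 and 45.9 CPM in XRN1-null. The groups did not overlap, and the log2FC of -0.34 (SE 0.0764) stood just outside the threshold (edgeR FDR = 0.00548). FTO was called lower by 7 of its 13 alternatives, DESeq2 (FDR = 0.00335) and edgeR's exact test (FDR = 0.000189) among them. The difference between the changes of both demethylases was not tested.

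Of the 3 cytoplasmic readers, which are paralogs of one another, YTHDF1 fell in mRNA and YTHDF2 and YTHDF3 were not called, and the differences among the paralogs were not tested. YTHDF1, a reader linked to translation of methylated mRNA, was at 99.1 and 98.7 CPM in WT and at 74.2 and 79.1 CPM in XRN1-null. The groups were apart and the mRNA fell by 22.5% (log2FC -0.37, SE 0.0651, edgeR FDR = 0.00174), a call lost without either XRN1-null RNA-Seq library (edgeR FDR = 0.0468 and 0.0153). YTHDF2, the reader that feeds mRNA to CCR4-NOT, was at 165 and 183 CPM in WT and at 163 and 170.4 CPM in XRN1-null. It was the only member whose groups overlapped in RNA-Seq (log2FC -0.06, SE 0.0732, edgeR FDR = 0.464), with a 95% interval from -0.24 to 0.11. YTHDF3, the third paralog, was at 85.9 CPM in both WT libraries and at 83.0 and 84.9 CPM in XRN1-null. The WT libraries were the higher ones, by a log2FC of -0.03 (SE 0.0611, edgeR FDR = 0.648) with an interval from -0.18 to 0.11. For YTHDF2 the sign turned without WT RNA-Seq replicate 2, and for YTHDF3 it turned on library totals and after thinning the counts, with no call in any of them.

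YTHDC1, the nuclear reader, had the largest rise among the members. Its mRNA was at 56.8 and 74.0 CPM in WT and at 106 and 101 CPM in XRN1-null. Relative to their mean, the WT replicates differed from each other more than those of any other member in RNA-Seq, yet both lay below the XRN1-null libraries, and the mRNA rose 1.59-fold (log2FC 0.67, SE 0.116, edgeR FDR = 0.00162). WTAP and YTHDC1 were the called members whose calls held in all 13 alternatives, and the log2FC of YTHDC1 ranged from 0.51 to 0.87 over them.

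In Ribo-Seq none of the 10 members was called in either direction by edgeR's quasi-likelihood test, beside 0.633% of all genes called higher and 1.14% called lower, and 4 of the 10 had an unadjusted p under 0.05, as did 33.0% of all genes. The number depended on the test: edgeR's exact test called KIAA1429, YTHDF3 and YTHDC1 higher, beside 4.70% of all genes, its likelihood ratio test called YTHDF3 alone, beside 4.64%, and DESeq2 called none, beside 0.980%. Groups did not overlap in 9 of the 10, with 6 higher in XRN1-null beside 32.1% of all genes and 3 lower beside 32.3%. The median log2FC of the members in RPF was 0.29, against 0.00 over all genes. WT replicate 1, the shallowest library, had the lowest CPM of the 4 for METTL3, METTL14, KIAA1429, YTHDF2, YTHDF3 and YTHDC1, and the part of its depth in these differences was not tested. Leaving out WT replicate 1 or WT replicate 2 raised the number of calls for the members and for all genes. Those fits took the spread from the XRN1-null libraries only, so the spread between WT replicates is not in them.

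**Figure D1:**
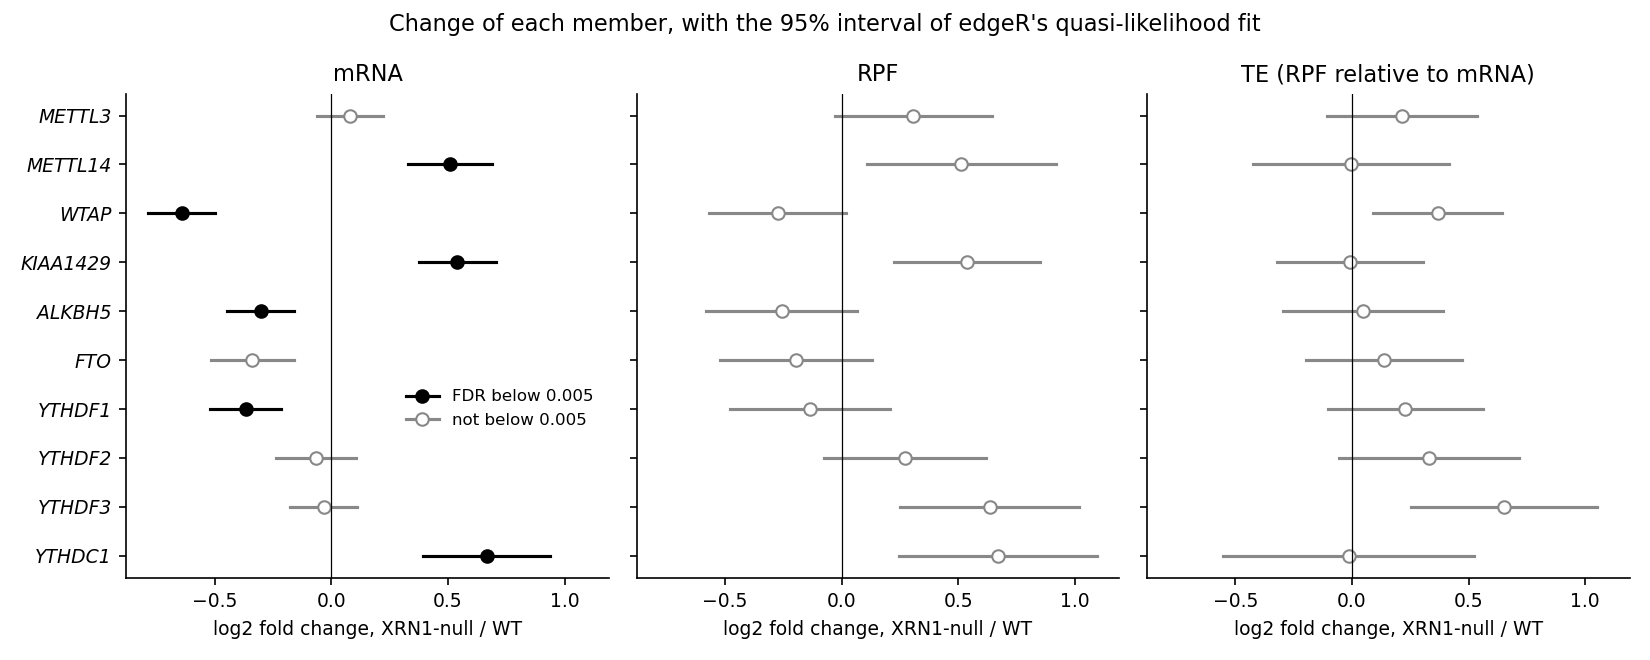
Log2 fold change of each member for mRNA, RPF and TE on a common axis, with filled black points where the FDR was below 0.005, open grey points otherwise, and lines for the 95% interval of edgeR's quasi-likelihood fit. Filled points are in the mRNA panel only, 3 on each side of 0, and the interval of YTHDF3 lies above 0 for RPF and for TE but not for mRNA.

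Footprints of the core subunits were higher in XRN1-null cells without passing the threshold. METTL14 footprints were at 18.8 and 27.1 CPM in WT and at 35.3 and 33.4 CPM in XRN1-null, from 36, 118, 142 and 107 counts. The XRN1-null libraries were the higher ones, and the log2FC of 0.51 (SE 0.185, edgeR FDR = 0.0793) was the size seen in mRNA. It was 0.35 without WT replicate 1 and 0.89 without WT replicate 2. METTL3 footprints were at 53.1 and 69.1 CPM in WT and at 77.0 and 77.7 CPM in XRN1-null, from 102, 301, 310 and 249 counts. These groups did not overlap either (log2FC 0.31, SE 0.154, edgeR FDR = 0.186). The log2FC was 0.17 without WT replicate 1 and 0.55 without WT replicate 2.

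Accessory-subunit footprints had the same signs as their mRNA. WTAP footprints were at 133 and 130 CPM in WT and at 109 and 108 CPM in XRN1-null, a narrow spread within each genotype. The difference was smaller than in mRNA (log2FC -0.27, SE 0.135, edgeR FDR = 0.179). KIAA1429 footprints were at 88.0 and 105 CPM in WT and at 142 and 141 CPM in XRN1-null, with both XRN1-null libraries higher (log2FC 0.54, SE 0.144, edgeR FDR = 0.0284). Over the 12 alternatives its log2FC stayed between 0.44 and 0.70.

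For ALKBH5 the footprints were at 80.2 and 69.1 CPM in WT and at 65.8 and 57.4 CPM in XRN1-null, from 154, 301, 265 and 184 counts. The WT libraries were the higher ones (log2FC -0.26, SE 0.149, edgeR FDR = 0.252), and the value ran from -0.37 to -0.15 when single libraries were left out. FTO footprints were at 54.2 and 58.1 CPM in WT and at 45.9 and 53.1 CPM in XRN1-null. These groups were apart by about 1 CPM (log2FC -0.20, SE 0.150, edgeR FDR = 0.384), and the value ran from -0.30 to -0.09 in the same way.

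Among the readers, the footprints of YTHDF3 and YTHDC1 stood furthest from WT. YTHDF3 footprints were at 43.2 and 62.3 CPM in WT and at 77.5 and 92.1 CPM in XRN1-null, from 83, 271, 312 and 295 counts. The groups did not overlap and the log2FC was 0.63 (SE 0.176, edgeR FDR = 0.0329), without WT replicate 1 0.44 and without WT replicate 2 0.97. YTHDC1 footprints were at 40.1 and 67.5 CPM in WT and at 93.4 and 85.5 CPM in XRN1-null, from 77, 294, 376 and 274 counts. Both XRN1-null libraries were higher (log2FC 0.67, SE 0.195, edgeR FDR = 0.0386), and the value moved from 0.41 without WT replicate 1 to 1.17 without WT replicate 2. YTHDF2 footprints were at 168 and 224 CPM in WT and at 230.2 and 247 CPM in XRN1-null, with WT replicate 2 close to the XRN1-null libraries (log2FC 0.27, SE 0.159, edgeR FDR = 0.254). The YTHDF2 value was 0.09 without WT replicate 1 and 0.52 without WT replicate 2. YTHDF1 footprints were at 38.0 and 40.9 CPM in WT and at 33.8 and 39.0 CPM in XRN1-null, the only member with overlapping groups in Ribo-Seq (log2FC -0.13, SE 0.158, edgeR FDR = 0.578, and from -0.23 to -0.02 without 1 library).

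**Figure D2:**
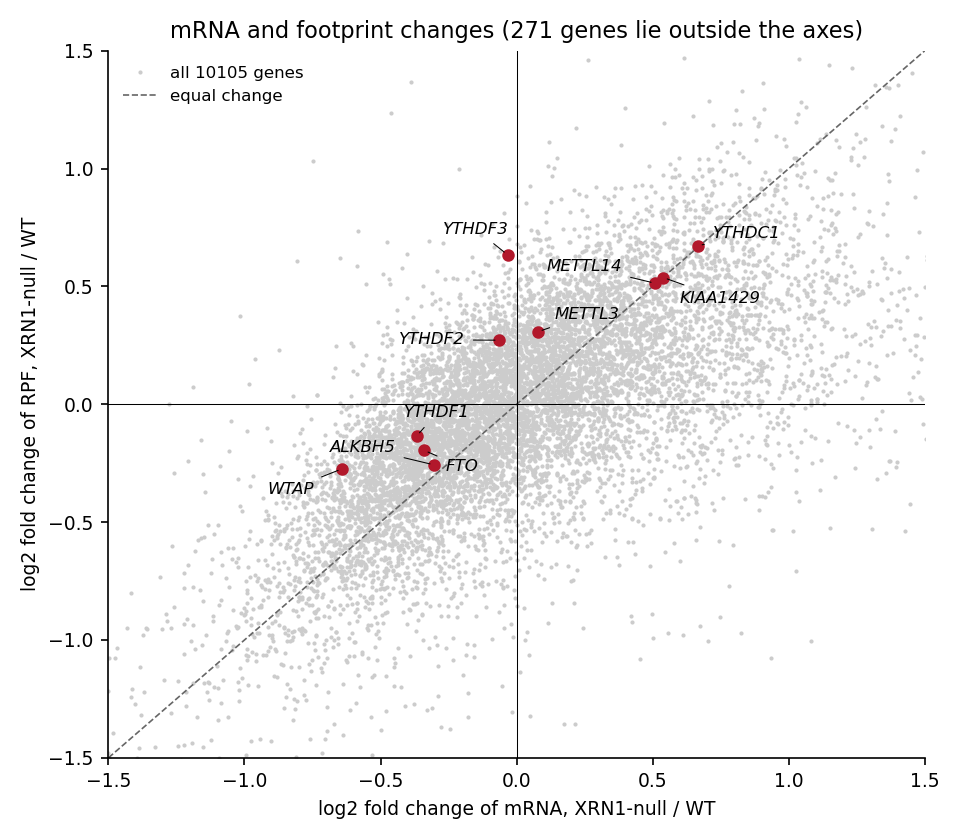
Log2 fold change of RPF (vertical) against that of mRNA (horizontal) for the 10105 genes in grey, of which 271 lie outside the axes (1.5 in either direction), with the 10 members in red and a dashed line of equal change. METTL14, KIAA1429 and YTHDC1 lie on the dashed line, and YTHDF3 lies at 0.63 for RPF and -0.03 for mRNA.

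For translational efficiency, the test over all 8 libraries asked whether the genotype difference in footprints departed from that in mRNA. No member was called in TE by edgeR's quasi-likelihood test, where 0.0495% of all genes were called higher and 1.78% lower, and 2 of the 10 (YTHDF3 and WTAP) had an unadjusted p under 0.05, as did 23.3% of all genes. DESeq2 called none, beside 0.336% of all genes higher and 4.48% lower, and edgeR's likelihood ratio test called YTHDF3 higher (FDR = 0.00298), beside 0.703% of all genes. YTHDF3 had the largest TE difference of the members, a log2FC of 0.65 (SE 0.183, edgeR FDR = 0.0516) that was above that of 98.4% of all genes, and over the 18 alternatives it ranged from 0.48 to 1.01. WTAP had a TE log2FC of 0.37 (SE 0.127, edgeR FDR = 0.104), the difference between its larger mRNA fall and its smaller footprint difference. METTL14, KIAA1429 and YTHDC1, the members whose mRNA rose, had TE log2FC of 0.00, -0.01 and -0.01, with 95% intervals from -0.42 to 0.42, from -0.32 to 0.30 and from -0.55 to 0.52. These intervals leave room for TE differences as large as that of WTAP in either direction for METTL14 and YTHDC1. The other 5 members had TE log2FC from 0.05 (ALKBH5) to 0.33 (YTHDF2) and were not called. When single libraries were left out, the value ran from 0.16 to 0.58 for YTHDF2 and from 0.09 to 0.47 for METTL3. It ran from 0.13 to 0.34 for YTHDF1, from 0.04 to 0.25 for FTO and from -0.06 to 0.15 for ALKBH5.

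The ratio of RPF CPM to mRNA CPM, taken from the RNA-Seq and Ribo-Seq libraries that carry one replicate number in one genotype, ranged from 0.213 to 1.45 over the members. ALKBH5 had the lowest ratio, at 0.256 and 0.213 in WT and at 0.256 and 0.220 in XRN1-null, where the medians over all genes were 0.788 to 0.822. Between 3.37% and 7.09% of genes lay below it, in all 4 pairs of libraries. YTHDF1 was second lowest, at 0.384 and 0.414 in WT and at 0.455 and 0.493 in XRN1-null, while its paralog YTHDF2 was at 1.02 and 1.22 in WT and at 1.41 and 1.45 in XRN1-null. YTHDF3 lay between them at 0.503 and 0.724 in WT and at 0.933 and 1.09 in XRN1-null. KIAA1429 had the highest ratio in WT, at 1.21 and 1.39, and was at 1.26 and 1.37 in XRN1-null. CPM is not divided by length, and mRNA reads cover untranslated parts that footprints mostly do not, so these ratios are compared between genotypes for 1 gene and only loosely between genes.

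**Figure D3:**
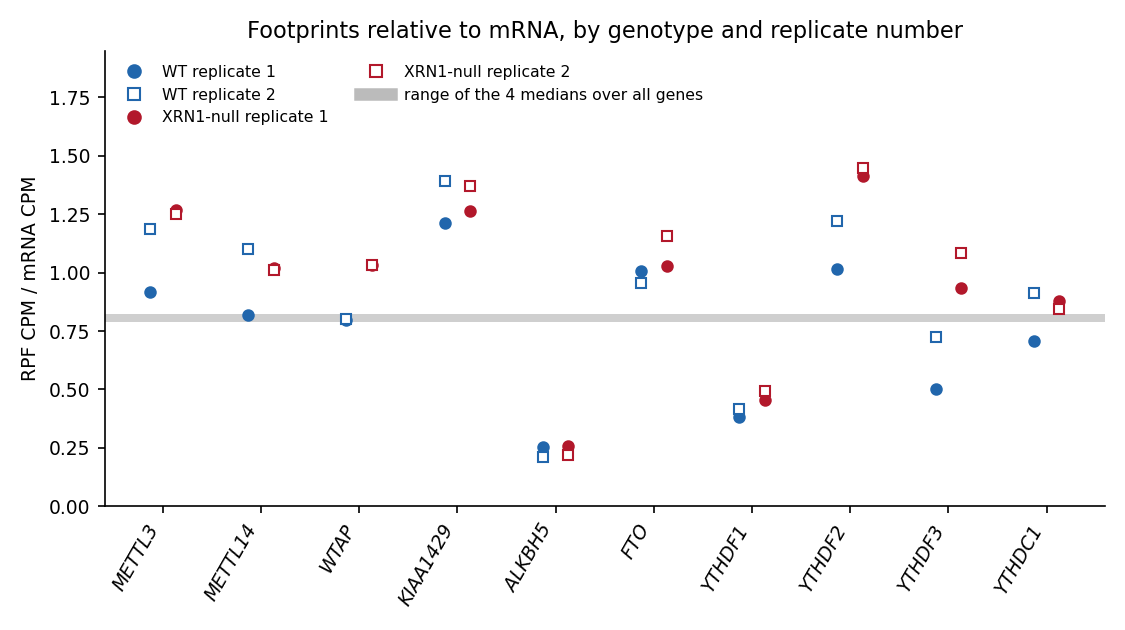
Ratio of RPF CPM to mRNA CPM for each member (linear axis from 0), WT in blue and XRN1-null in red, filled circles for replicate 1 and open squares for replicate 2, with a grey band for the range of the 4 medians over all genes. ALKBH5 and YTHDF1 stay below 0.5 in both genotypes, and the XRN1-null points of YTHDF3 (0.933 and 1.09) lie above its WT points (0.503 and 0.724).

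Levels between genes were compared as RPKM, CPM per kb of the width deposited for each gene, as a description with no test. In WT RNA-Seq the order of mean RPKM was ALKBH5 at 93.1, YTHDF2 at 56.9, WTAP at 46.8, YTHDF1 at 30.4, METTL3 at 28.7, YTHDF3 at 15.8, FTO at 13.4, KIAA1429 at 11.1, YTHDC1 at 10.5 and METTL14 at 6.78. All neighbours in this order were apart except KIAA1429 and YTHDC1, whose ranges overlapped. In XRN1-null RNA-Seq ALKBH5 (75.4), YTHDF2 (54.4) and METTL14 (9.64) kept their places. The ranges of METTL3 (30.4) and WTAP (30.03), which were apart in WT, overlapped there. KIAA1429 (16.2) overlapped YTHDF3 (15.4) and, as in WT, YTHDC1 (16.6), while YTHDC1 and YTHDF3 were apart. In Ribo-Seq YTHDF2 led with 64.0 RPKM in WT and 77.9 in XRN1-null, and ALKBH5, first in mRNA, stood below YTHDF2, WTAP and METTL3 in WT (21.8) and also below KIAA1429 in XRN1-null (17.9). METTL14 was last in footprints in both genotypes (6.54 and 9.80), although in WT its range overlapped that of YTHDC1 (8.61). With the coding length in place of the deposited width, 2 of the 10 members kept their rank in each RNA-Seq group, 3 in WT Ribo-Seq and 1 in XRN1-null Ribo-Seq. On that scale KIAA1429, which has the longest coding sequence of the members, was last in RNA-Seq (13.6 in WT and 19.8 in XRN1-null). YTHDF2 had the highest mean in Ribo-Seq (113 and 137), with a range that overlapped that of WTAP (110.4) in WT and was apart from it in XRN1-null (91.2). ALKBH5 footprints had rank 3 there (63.2 in WT and 52.1 in XRN1-null). They were above METTL3 (35.1 and 44.45) in both genotypes and above KIAA1429 (26.0) in XRN1-null, with ranges apart. METTL14 footprints were last in WT (16.8), with a range that overlapped that of KIAA1429 (17.75). In XRN1-null YTHDF1 was last (21.7), apart from METTL14 (25.1).

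Ratios within a library, which need no scaling between libraries, gave the balance of partner genes. METTL3 over METTL14 mRNA, per width, was 4.38 and 4.11 in WT and 3.05 and 3.26 in XRN1-null, and per coding length it was 1.99 and 1.87 against 1.38 and 1.48. WTAP over METTL3 mRNA, per width, was 1.66 and 1.60 in WT and 1.00 and 0.976 in XRN1-null, and per coding length it was 4.21 and 4.05 against 2.54 and 2.47. Both mRNA ratios were lower in XRN1-null without overlap. In footprints the same ratios per width were 4.91 and 4.42 against 3.78 and 4.03 for METTL3 over METTL14, and 1.44 and 1.08 against 0.816 and 0.803 for WTAP over METTL3, again without overlap. Per coding length the footprint ratios were 2.23 and 2.01 against 1.72 and 1.83 for METTL3 over METTL14, and 3.66 and 2.74 against 2.07 and 2.04 for WTAP over METTL3. WTAP thus stood below METTL3 in XRN1-null footprints per width and above it per coding length. The fold difference between genotypes is the same on both scales by construction, since the length of each gene cancels. For the demethylases, ALKBH5 over FTO mRNA was at 7.28 and 6.69 in WT and at 7.19 and 7.10 in XRN1-null. In footprints that ratio was much smaller, at 1.85 and 1.49 in WT and at 1.79 and 1.35 in XRN1-null, and the groups overlapped in both assays. YTHDF2 over YTHDF1 footprints was 4.68 and 5.82 in WT and 7.24 and 6.72 in XRN1-null, while YTHDF2 over YTHDF3 footprints was 6.90 and 6.41 in WT and 5.29 and 4.77 in XRN1-null. The first ratio was higher and the second lower in XRN1-null, both without overlap. In mRNA, per width, YTHDF2 over YTHDF1 was 1.77 and 1.97 in WT and 2.33 and 2.29 in XRN1-null, without overlap. YTHDF2 over YTHDF3 mRNA was 3.42 and 3.80 in WT and 3.49 and 3.57 in XRN1-null, where the groups overlapped. How often the ratios of other gene pairs lie apart between the genotypes was not computed.

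The genes whose pattern was most like that of METTL3 over the 8 libraries, by Pearson's r of log2(CPM + 0.5) centred within each assay, were SECISBP2L (0.993), RBM26 (0.993) and DDX5 (0.993). For YTHDF2 they were CSTF2T (0.995), NUP37 (0.993) and IDH1 (0.991). These are the highest of all genes over 8 points that share genotype, depth and replicate, and they are given as a description.

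Of 38 other genes of the m6A pathway, in 5 lists, 11 rose and 10 fell in mRNA, beside the backgrounds of 22.9% and 23.2% given above. None was called in RPF or TE by edgeR's quasi-likelihood test, and 19 of the 38 had an unadjusted p under 0.05 in RPF and 8 in TE, beside the 33.0% and 23.3% of all genes given above. By DESeq2 2 were called higher in RPF, beside 0.980% of all genes, and 1 lower in TE, beside 4.48%. By edgeR's exact test 5 were called higher in RPF, beside 4.70% of all genes, and 3 lower, beside 5.81%. Among the 4 other subunits of the writer complex, 2 rose and 1 fell, where 22.9% of all genes rose and 23.2% fell. ZC3H13, which helps to keep the complex in the nucleus, rose from 40.0 and 56.2 CPM in WT to 95.5 and 95.4 CPM in XRN1-null (log2FC 0.99, SE 0.139, edgeR FDR = 0.000559). RBM15B, an RNA-binding recruiter, fell from 205 and 196 to 133 and 134 CPM (log2FC -0.59, SE 0.0625, edgeR FDR = 0.000155). CBLL1 and RBM15, the rest of this list, are named after their values were seen: CBLL1 rose (log2FC 0.48, SE 0.0649, edgeR FDR = 0.000447) and RBM15 was not called (log2FC 0.25, edgeR FDR = 0.0586). Together with the members, the writer complex thus held subunits that rose (METTL14, KIAA1429, ZC3H13, CBLL1), subunits that fell (WTAP, RBM15B) and some that were not called (METTL3, RBM15).

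Among the 6 other methyltransferase genes of the m6A family, 2 rose and 2 fell, beside 22.9% and 23.2% of all genes. METTL5, the 18S rRNA methyltransferase, fell from 83.3 and 72.3 to 52.2 and 53.5 CPM (log2FC -0.56, SE 0.0815, edgeR FDR = 0.000681). ZCCHC4, the 28S rRNA methyltransferase, rose from 9.40 and 11.6 to 14.9 and 15.6 CPM (log2FC 0.54, SE 0.119, edgeR FDR = 0.00496) and lay at the threshold. The ZCCHC4 call was lost without either XRN1-null RNA-Seq library (edgeR FDR = 0.0115 without replicate 1 and 0.0236 without replicate 2) and with thinned counts (edgeR FDR = 0.0819). The 13 other proposed m6A readers held 5 that rose and none that fell, beside 22.9% and 23.2% of all genes. Their median log2FC was 0.34 in mRNA and 0.51 in RPF, against -0.01 and 0.00 over all genes, and no test was made of the list. YTHDC2, a YTH-domain helicase that binds XRN1, rose from 59.0 and 65.8 to 169.8 and 175 CPM, the largest rise of the 48 genes (log2FC 1.47, SE 0.0748). Its footprints went from 54.2 and 79.0 to 121 and 130.2 CPM (log2FC 0.88, SE 0.171, edgeR FDR = 0.00823), and its TE log2FC was -0.60 (edgeR FDR = 0.0755).

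Of the 3 genes of the S-adenosylmethionine cycle, which supplies the methyl donor, 2 fell, beside 23.2% of all genes. MAT2A, the synthetase and itself a target of the methyltransferase METTL16, fell from 248 and 251 to 170.0 and 186 CPM in mRNA (log2FC -0.49, SE 0.0692, edgeR FDR = 0.000603), with a footprint log2FC of 0.01. Its mRNA call was lost without XRN1-null RNA-Seq replicate 1 (log2FC -0.42, edgeR FDR = 0.0196). The 12 genes that link YTHDF2 to mRNA decay held 2 that rose and 5 that fell, again beside 22.9% and 23.2%. UPF1, the NMD helicase, rose from 106 and 142 to 285 and 296 CPM (log2FC 1.23, SE 0.126, edgeR FDR = 0.000128). RIDA (the current symbol of HRSP12), which bridges YTHDF2 to RNase P/MRP, fell from 54.0 and 47.2 to 23.9 and 23.5 CPM (log2FC -1.09, SE 0.0853). Its footprints had a log2FC of -0.85 (edgeR FDR = 0.00599), and those of UPF1 one of 1.04 (edgeR FDR = 0.00582), both just outside the threshold. CNOT1, the scaffold of CCR4-NOT, is named after its values were seen. Its log2FC was -0.04 in mRNA, -0.67 in RPF (edgeR FDR = 0.0137) and -0.63 in TE (edgeR FDR = 0.0319), none of them called. It was the 1 other pathway gene that passed FDR 0.05 in TE. In TE the 12 genes had 6 positive and 6 negative log2FC.

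**Figure D4:**
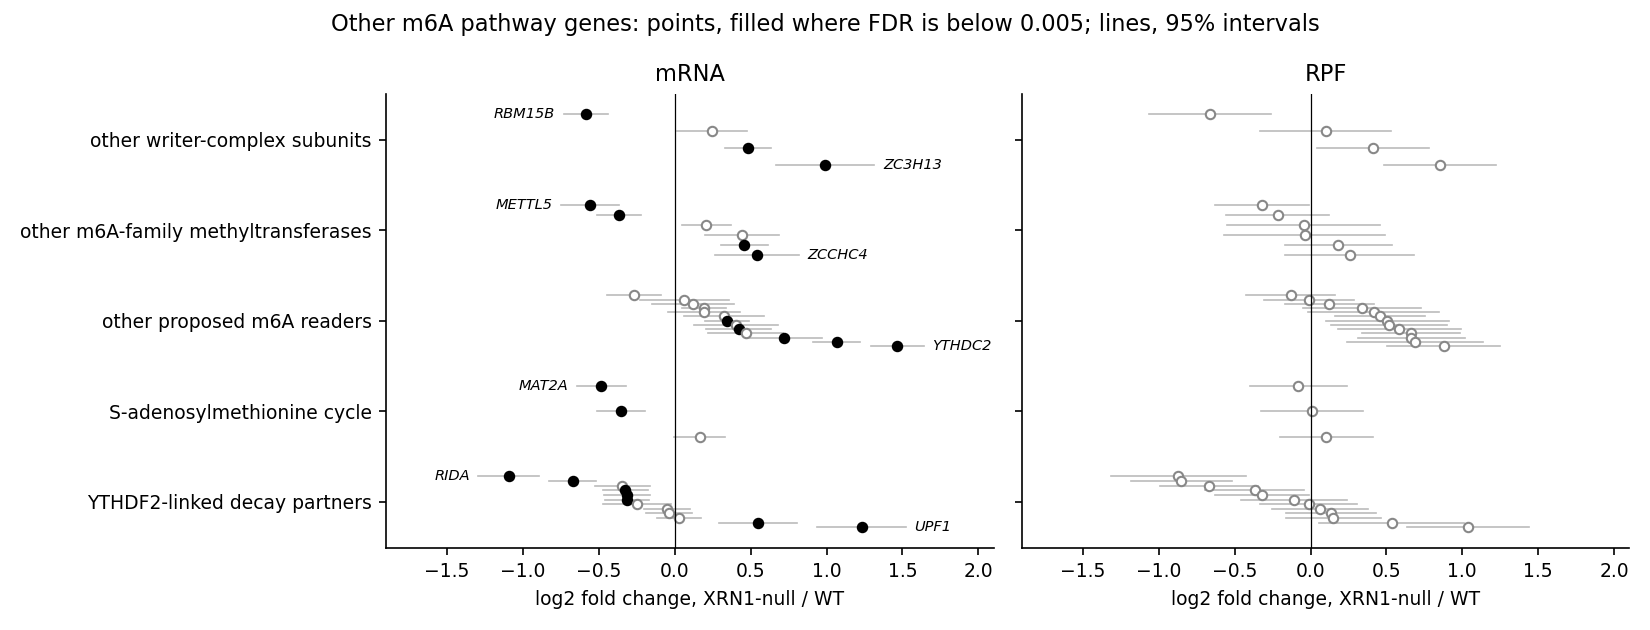
Log2 fold change of the 38 other m6A pathway genes in mRNA (left) and RPF (right), by list, with 95% intervals as lines and filled points where the FDR was below 0.005; the largest rise and fall among the called genes of each list are named. The mRNA panel holds 11 filled points above 0 and 10 below, the RPF panel none, and in both panels YTHDC2 is at the right end of the other readers.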

How the data were processed

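RNA-Seq and Ribo-Seq data came from HEK293T cells, WT or XRN1-null. The authors filtered rRNA reads with Bowtie2, mapped paired-end reads on hg19 with Tophat2, chose footprint lengths by codon periodicity, counted with QuasR, kept genes above an FPKM limit, and deposited raw counts per gene and library with 1 other column, the width of each gene in nt. The submitters' processing notes name Bowtie2, TopHat2, edgeR and hg19. Strand, the handling of reads that match several genes, and whether both mates of a pair were counted are not given in the sources used here. The deposited comparison files hold the authors' log2 fold changes, p-values and FDR (edgeR), and TE values (RiboDiff), and were not used.

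Starting from the counts, edgeR 4.0.16 (R 4.3.3) was fitted to all 10105 genes with TMM factors within each assay, by genotype for mRNA and RPF and with the interaction of assay and genotype over 8 libraries for TE, since RiboDiff was not installed. Genes were called at an FDR below 0.005 in the quasi-likelihood test. The SE is the log2FC divided by the square root of F. The design calls the replicates biological, and p-values measure the spread between these samples only. No molecular identifiers are described, so counts can include PCR duplicates. The test functions were tested on simulated data first. GENCODE release 44 on GRCh37 was matched to 10030 genes (99.3%) and read with Python 3.11.15.

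The members, the 5 other gene lists and the rules were chosen with earlier results of these data known. The rule named all 10 members, XRN1, the other pathway genes called in RPF or TE, and per list the largest rise and fall called in mRNA. It also named the 3 genes most like METTL3 and YTHDF2. Alternatives were the likelihood ratio and exact tests of edgeR, DESeq2 1.42.0, library totals, RLE factors, TMM across the 8 libraries, a mean of at least 10 counts, FDR 0.05, replicate blocks, thinned RNA-Seq counts, coding length, and leaving out each library.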

Additional observations from a re-analysis of the deposited data

How the results depend on the processing

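WTAP and YTHDC1 mRNA kept their calls in all 13 alternatives. One of these is the main fit read at FDR 0.05, where no called gene can lose its call. KIAA1429 lost its call in 1, METTL14 and YTHDF1 each in 2 and ALKBH5 in 4, while FTO gained one in 7. No called member changed sign in any of them. Members called in mRNA went from 3 higher to 1 to 3 and from 3 lower to 1 to 4 when single libraries were left out, a fit in which the lone library is assumed to vary like the other group. Other pathway genes called in mRNA went from 11 higher to 17 at FDR 0.05 and from 10 lower to 6 on library totals and 6 with thinned counts, and over the fits without 1 library to 6 to 22 higher and 4 to 12 lower.

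Members called higher in RPF went from 0 to 3 with the exact test, 1 with the likelihood ratio test, 3 at FDR 0.05 and 0 to 6 without 1 library. Other pathway genes called in RPF went from 0 to 1 (RLE), 3 (library totals), 2 (DESeq2), 5 (exact), 5 (likelihood ratio) and 7 (FDR 0.05) higher, and to 1 (library totals), 3 (exact), 3 (likelihood ratio) and 4 (FDR 0.05) lower, with 0 to 14 higher and 0 to 5 lower without 1 library. In TE the likelihood ratio test called 1 member higher, and 1 other pathway gene was called lower by DESeq2 and at FDR 0.05, with 0 to 2 without 1 library. Over all genes, RPF calls went from 64 higher and 115 lower to 475 and 587 (exact), 469 and 596 (likelihood ratio) and 714 and 847 (FDR 0.05), and the higher ones to 133 on library totals and 99 by DESeq2. TE calls went from 5 higher and 180 lower to 34 and 453 (DESeq2), 71 and 596 (likelihood ratio) and 103 and 653 (FDR 0.05), and mRNA calls from 2344 lower to 1474 with thinned counts. Without 1 library, all-gene calls ran from 1632 to 3410 higher and 1097 to 3389 lower in mRNA, 71 to 1282 and 72 to 1087 in RPF, and 0 to 9 and 19 to 230 in TE. The cause was not tested beyond what these settings change. Ranks per coding length matched those per width in 2, 2, 3 and 1 of the 10 members (WT RNA-Seq, XRN1-null RNA-Seq, WT Ribo-Seq, XRN1-null Ribo-Seq).

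Whether same-numbered libraries share a culture is not given in the sources used here. Their deviations correlated over genes at 0.190 (RNA-Seq), 0.0803 (Ribo-Seq) and 0.0766 (TE) between genotypes, and at 0.355 (WT) and 0.0326 (XRN1-null) between assays. With the replicate block, 3 members were called higher in RPF (KIAA1429, YTHDF3 and YTHDC1), 8 other pathway genes higher and 3 lower, 3 members were higher and 4 lower in mRNA, and over all genes 616 were higher and 665 lower in RPF. With a culture block (genotype and replicate number over both assays), 1 other pathway gene was lower in TE, and 55 genes were higher and 435 lower over the whole table.

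Log2FC that were not called changed sign in some settings and stayed uncalled there. In mRNA, YTHDF3 went to 0.023 on library totals and 0.034 with thinned counts, and YTHDF2 ran from -0.12 to 0.012 without 1 library. In TE, METTL14 went to 0.024 with the replicate block, 0.025 with the culture block and 0.088 with thinned counts, KIAA1429 to 0.0044 with the replicate block, and ALKBH5 to -0.00086 with TMM across the 8 libraries. YTHDC1 went to 0.019 by DESeq2, 0.020 by the likelihood ratio test, 0.011 with the replicate block, 0.045 with the culture block and 0.066 with thinned counts. Without 1 library the TE log2FC ran from -0.16 to 0.38 (METTL14), -0.10 to 0.16 (KIAA1429), -0.059 to 0.15 (ALKBH5), -0.25 to 0.51 (YTHDC1), -0.43 to 0.20 (ZC3H13) and -0.44 to 0.20 (UPF1), and the RPF log2FC of MAT2A from -0.15 to 0.23.

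In WT Ribo-Seq replicate 1 the members had 36 to 322 counts, and differences in RPF or TE smaller than their intervals were not detectable in these libraries. With mRNA counts thinned to footprint depth, WTAP, KIAA1429, YTHDF1 and YTHDC1 kept their mRNA calls and METTL14 and ALKBH5 lost theirs.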
